A study of Homo sapiens with 20 samples.

Results

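The genes described here build the sugar chains that a cell attaches to its proteins in the endoplasmic reticulum: those of N-glycosylation and those of glycosylphosphatidylinositol (GPI) anchor synthesis. Members were taken by name as genes called ALG, DPM, PIG or PGAP with a number or letter, together with RPN1, RPN2, DDOST, STT3A, STT3B, OSTC, DAD1, TUSC3, MAGT1 and MPDU1. The names matched 52 of the 58735 genes in the count tables, and 49 of these had enough reads to be tested. PIGY, PIGR and ALG1L were too low. ALG1L had 11 and 33 counts in filtered air libraries 1 and 2, 7 in aerosol library 2 and 0 elsewhere, and PIGR had 7 counts in filtered air library 1 and 0 elsewhere. A count of 0 allows up to 3 counts in a library, or 0.0326 to 0.0555 CPM. PIGR is the polymeric immunoglobulin receptor and shares only the form of its name with the PIG genes.

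Messenger RNA was sequenced from AC16, a proliferating cell line derived from human heart muscle, after exposure at an air–liquid interface. There were 5 libraries from cells exposed to e-cigarette aerosol and 5 from cells kept under filtered air. All cells grew in DMEM/F12 medium with serum, and the labels describe the replicates of each group as biological. No source used here gives the aerosol's make-up, dose or exposure time. Nothing in the labels says that replicates came from separate cultures, so p-values measure the spread between these libraries. Of 12 cardiomyocyte markers, 9 stayed under 1 CPM (read counts set to a common library size, with TMM scaling) in every library. TNNT2, MYH6, MYH7, MYL2, MYL7 and NKX2-5 had no counts at all, which allows up to 3 counts per library, while GATA4 lay between 5.92 and 21.2 CPM in filtered air. The 7 fibroblast markers had filtered air means above 1 CPM, although DCN and PDGFRA went below it in single libraries. They summed to 2480 to 3110 CPM in filtered air and 2200 to 2920 CPM after the aerosol, and none passed the edgeR test. Most of this sum was COL1A1, with means of 2210 and 1900 CPM. LUM, PDGFRA and DCN had filtered air means of only 5.79, 2.07 and 1.54 CPM. Of 5 endothelial and 4 leukocyte markers, 4 and 3 stayed under 1 CPM. The 4 epithelial markers summed to 175 to 265 and 128 to 149 CPM, and KRT18 among them fell (log2 fold change -0.67, edgeR adjusted p = 0.0136); the part of this shift in the results below was not tested.

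In N-glycosylation, a branched glycan is first built on the lipid dolichol, partly on the cytosolic and partly on the lumenal face of the endoplasmic reticulum. The oligosaccharyltransferase complex then moves the finished glycan onto asparagine residues of new proteins. GPI synthesis builds a different glycan on phosphatidylinositol, and a transamidase joins it to the end of proteins that are to be tethered to the outer leaflet of the cell membrane. Both routes take mannose from dolichol-phosphate mannose, made by the DPM enzyme, so this enzyme stands upstream of both.

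After the aerosol, 3 of the 49 tested genes fell and none rose. They were DPM3, the membrane tether of the DPM enzyme, and RPN1 and DDOST, both non-catalytic subunits of the oligosaccharyltransferase. The count was 0 in 6 of the 10 fits that left out a single library (filtered air 1, 2, 3 or 4 or aerosol 3 or 4) and 1 without aerosol libraries 4 and 5 together. The 3 genes are 6.12% of the genes tested here, against 1.39% of all 20166 genes tested that fell, 1.62% that rose and 3.01% in either direction (edgeR's quasi-likelihood test, p adjusted over all genes and under 0.05). Where the mean reached 5 CPM or more, as in 10970 tested genes, 2.51% fell. At an unadjusted p under 0.05, 6 members (12.2%) were lower, against 9.48% of all genes, and 1 was higher, against 8.78% of all genes. No member rose by DESeq2 or limma-voom either, and 1 did, ALG13, by limma-voom with quality weights.

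Of the 49 genes, 33 (67.3%) had a log2 fold change below 0, against 50.4% of all genes tested and 57.6% of those with at least 5 CPM. The median log2 fold change was -0.17 for the members, 0.00 for all genes tested and -0.07 for those with at least 5 CPM. In 4 members (8.16%) every aerosol library lay below every filtered air library, against 3.93% of all genes tested and 6.29% of those with at least 5 CPM. The opposite separation occurred in no member and in 3.52% of all genes. The genes of the dolichol and N-glycan roles held all 3 calls among 26 tested, with a median of -0.21. The GPI roles had no call among 23 by edgeR, DESeq2 or limma-voom, none past an unadjusted p under 0.05, and a median of -0.02. The difference between both routes was not tested.

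**Figure D1:**
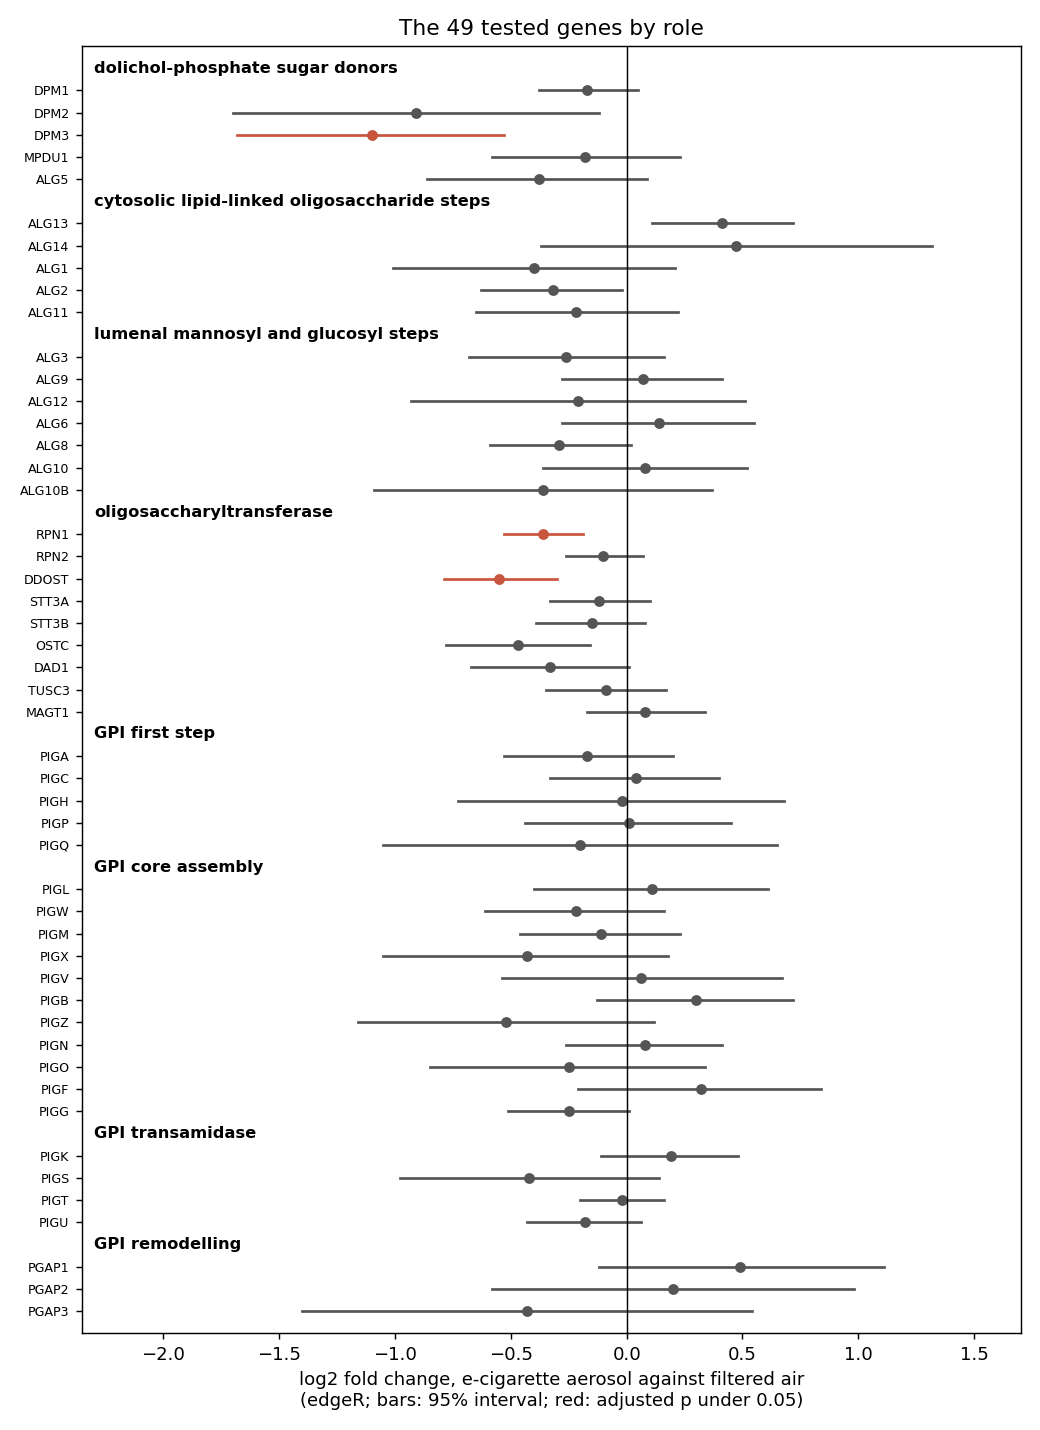
Log2 fold change of each of the 49 tested genes, aerosol against filtered air, on the x axis, with genes grouped by role on the y axis; points are edgeR estimates, bars their 95% intervals, and red marks an adjusted p under 0.05. DPM3 lies farthest to the left at -1.10, and the GPI genes spread on both sides of 0.

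The libraries themselves differed between groups. Depth, as the total of gene counts, ran from 65902331 to 88806394 in filtered air and from 60482726 to 72099157 after the aerosol. Mitochondrially encoded genes took 7.75 to 10.3% of counts in filtered air and 12.4 to 19.5% after the aerosol. The nuclear RNA MALAT1 lay at 2800 to 3770 CPM and at 7490 to 44800 CPM. Aerosol libraries 4 and 5 had scores of 82.2 and 206 on principal component 1 and stood apart, since all other libraries lay between -50.7 and 1.11. The part of these shifts in the results was not tested. In bulk RNA, fewer cells of a kind and less RNA per cell cannot be told apart.

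DPM3 fell to 46.6% of its filtered air mean. DPM3 encodes a small protein that holds the catalytic subunit DPM1 at the endoplasmic reticulum membrane. In GRCh38.p14 the gene spans 641 bases on chromosome 1, from 155139891 to 155140531, and overlaps no other RefSeq gene. Its level was 13.6, 13.0, 15.7, 11.7 and 9.00 CPM in filtered air libraries 1 to 5, and 4.78, 8.39, 5.82, 3.21 and 7.11 CPM in aerosol libraries 1 to 5. The groups did not overlap, although filtered air library 5 and aerosol library 2 came close to each other. The means were 12.6 ± 2.47 and 5.86 ± 2.01 CPM (SD, n = 5 each), a log2 fold change of -1.10 ± 0.27 (standard error, edgeR adjusted p = 0.0441). The call was lost without filtered air replicate 1, 2, 3 or 4 or aerosol replicate 1, 3 or 4, with adjusted p between 0.0678 and 0.126 and log2 fold changes between -1.13 and -0.95. Without aerosol libraries 4 and 5 together the log2 fold change was -1.0 (edgeR adjusted p = 0.0673).

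The promoter window of DPM3 is shown because this gene had the largest fall of the set. It runs from 250 bases before to 50 bases after the RefSeq start (GRCh38.p14, minus strand, chr1:155140482-155140781). Capitals mark CCACG, the part of the endoplasmic reticulum stress element that factors of the unfolded protein response contact, on either strand.
DPM3: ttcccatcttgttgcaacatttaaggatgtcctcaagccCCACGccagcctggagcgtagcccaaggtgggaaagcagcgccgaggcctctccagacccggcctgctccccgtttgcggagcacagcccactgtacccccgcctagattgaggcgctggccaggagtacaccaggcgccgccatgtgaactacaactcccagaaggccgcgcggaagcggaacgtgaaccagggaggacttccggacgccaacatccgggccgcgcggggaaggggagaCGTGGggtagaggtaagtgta
The window held CCACG on both strands and no CCAAT.

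None of the other 4 donor genes passed the test, although all had log2 fold changes below 0, as did 57.6% of tested genes with at least 5 CPM. DPM2, a membrane subunit of the same enzyme that also associates with the first enzyme of GPI synthesis, lay at 32.8, 28.9, 28.2, 30.7 and 35.8 CPM in filtered air libraries 1 to 5. After the aerosol it lay at 33.6, 13.3, 16.8, 14.6 and 4.96 CPM. Aerosol library 1 was thus within the filtered air range and the other 4 were far below it. DPM2 did not pass the test (log2 fold change -0.91 ± 0.36, edgeR adjusted p = 0.208), and of the single libraries left out it passed only without aerosol replicate 1 (-1.34, edgeR adjusted p = 0.0307). Without aerosol libraries 4 and 5 together it was -0.57 (edgeR adjusted p = 0.309). DPM1, the catalytic subunit, was at 107 ± 8.12 and 95.7 ± 8.88 CPM (n = 5 each), a log2 fold change of -0.17 with a 95% interval from -0.38 to 0.05. MPDU1, which is needed for the use of dolichol-linked mannose and glucose, and ALG5, which makes dolichol-phosphate glucose, were at -0.18 and -0.38 and did not pass.

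**Figure D2:**
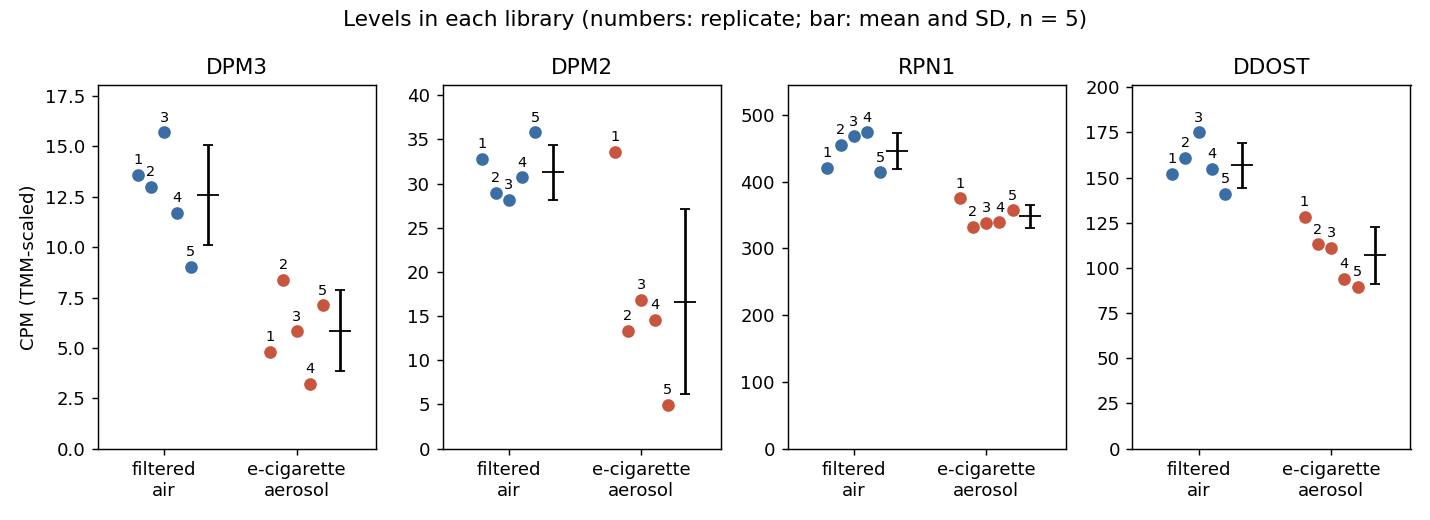
CPM (y axis, from 0) of DPM3, DPM2, RPN1 and DDOST in each library, with replicate numbers at the points and the mean ± SD of 5 libraries beside each group. Filtered air and aerosol libraries are separate for DPM3, RPN1 and DDOST, and aerosol library 1 of DPM2 lies among the filtered air libraries.

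The oligosaccharyltransferase had 2 of its 9 tested subunits lower (22.2%) and none higher. Of all tested genes with at least 5 CPM, 2.51% were lower. In the complex 8 of 9 log2 fold changes were below 0 (88.9%, median -0.15), against 57.6% of genes with at least 5 CPM. The difference from these shares was not tested. RPN1 (ribophorin I), which helps to present membrane proteins to the complex, is on chromosome 3, from 128619969 to 128650818. It lay at 421, 455, 468, 474 and 414 CPM in filtered air libraries 1 to 5 and at 375, 332, 338, 339 and 357 CPM in aerosol libraries 1 to 5. Every aerosol library was below every filtered air library, and the spread in both groups was small. The log2 fold change was -0.36 ± 0.08 (n = 5 each, edgeR adjusted p = 0.0293). The call was lost without filtered air replicate 1, 2, 3 or 4 or aerosol replicate 3 or 4, with adjusted p between 0.0583 and 0.0904 and log2 fold changes from -0.38 to -0.34. It was also lost with upper-quartile scaling (-0.28, edgeR adjusted p = 0.0894).

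DDOST encodes a subunit close to the catalytic core of the complex and spans chromosome 1 from 20651777 to 20661369. Its level was 152, 161, 175, 155 and 141 CPM in filtered air libraries 1 to 5, and 128, 113, 111, 93.8 and 89.3 CPM in aerosol libraries 1 to 5. The groups were separate, and aerosol libraries 4 and 5 were the lowest. The mean fell to 68.5% of filtered air, a log2 fold change of -0.55 ± 0.11 (n = 5 each, edgeR adjusted p = 0.0240). The call was lost without filtered air replicate 1, 2, 3 or 4 or aerosol replicate 3 or 4, with adjusted p between 0.0551 and 0.0781 and log2 fold changes from -0.57 to -0.51. Without aerosol libraries 4 and 5 together the log2 fold change was -0.42 (edgeR adjusted p = 0.0518).

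DDOST overlaps the antisense gene PINK1-AS, and no source used here says whether counting used strand. Reads of the overlap therefore cannot be assigned with certainty. PINK1-AS itself was at 44.6 ± 6.19 and 32.5 ± 6.26 CPM (n = 5 each) and did not pass (log2 fold change -0.46, edgeR adjusted p = 0.134). The promoter window of DDOST is shown for comparison with that of DPM3 (GRCh38.p14, minus strand, chr1:20661320-20661619), with capitals on CCAAT and CCACG, on either strand.
DDOST: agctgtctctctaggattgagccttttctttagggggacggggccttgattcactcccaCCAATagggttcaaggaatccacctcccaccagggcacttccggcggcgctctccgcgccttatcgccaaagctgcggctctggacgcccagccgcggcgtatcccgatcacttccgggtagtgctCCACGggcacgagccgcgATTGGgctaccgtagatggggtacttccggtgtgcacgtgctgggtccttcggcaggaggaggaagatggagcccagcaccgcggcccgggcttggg
Both elements were present here, though not at the spacing of the full endoplasmic reticulum stress element.

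RefSeq promoter windows of this kind were found for 43 of the 52 genes, of which 42 were tested. The full stress element, CCAAT followed after 9 bases by CCACG, searched on both strands, was in 0.0806% of 27305 promoters and in 1 of the 42. That gene was ALG12, a lumenal mannosyltransferase, from 134 to 116 bases before its start.
ALG12: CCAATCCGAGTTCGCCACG
ALG12 itself did not pass the test (log2 fold change -0.21 ± 0.33). The related element, ATTGG followed after 1 base by CCACG, and the core TGACGTGG, bound by XBP1 or ATF6 in other promoters, were in none of the 42 and in 0.0549% and 0.795% of all promoters. The short word CCACG was in 26 of 42 (61.9%) and in 37.9% of all promoters, and CCAAT in 17 of 42 (40.5%) and in 35.7%. Both short words lie within the full element, and the median GC content of the windows was 61.7% for the members and 58.3% for all promoters. The 42 were limited to genes with enough reads to be tested, and the 27305 were not. The shares thus come from unlike sets, and their difference was not tested.

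Subunits of the complex did not all lie at the same distance from filtered air. OSTC, a subunit of the form that works alongside the translocon, ranged from 25.1 to 38.4 CPM in filtered air and from 21.4 to 26.6 CPM after the aerosol (log2 fold change -0.47 ± 0.14). It missed the threshold by edgeR (adjusted p = 0.102) and passed by DESeq2. DAD1, a small essential subunit, was at -0.33 ± 0.16 (edgeR adjusted p = 0.294). The catalytic subunits STT3A, which acts during translocation, and STT3B, which also acts after it, were at -0.12 (95% interval -0.33 to 0.10) and -0.15 (-0.39 to 0.08). RPN2, or ribophorin II, was at -0.10.

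TUSC3 and MAGT1, alternative oxidoreductase subunits of the STT3B form, were at -0.09 and 0.08. Summed over the 9 subunits, the level was 1620 ± 47.5 CPM in filtered air and 1400 ± 27.6 CPM in the aerosol libraries (n = 5 each), with ranges of 1560 to 1670 and 1360 to 1430. The aerosol sum was 86.1% of filtered air, and between 80.5% and 91.0% under other scalings, always without overlap. Without RPN1 and DDOST the other 7 subunits summed to 92.3% of filtered air, with ranges of 965 to 1110 and 909 to 962 CPM. Such a separation was not particular to this complex. The donor genes, DPM3 among them, summed to 80% of filtered air, and to 74.8 to 84.7% under other scalings, also without overlap. The sums of the remaining roles overlapped between groups under every scaling. No p was computed for these sums, since the members were chosen with earlier results known.

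**Figure D3:**
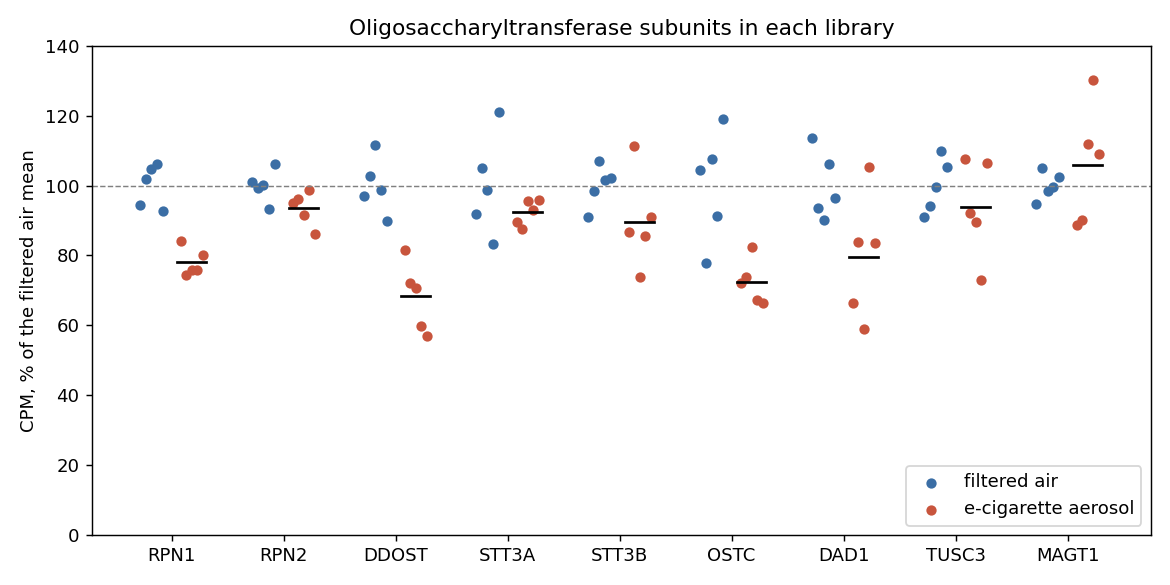
CPM of each oligosaccharyltransferase subunit (x axis) in each library, as a percentage of that gene's filtered air mean (y axis, from 0); black lines are aerosol means. RPN1 and DDOST separate the groups, at 78.0% and 68.5% of filtered air. OSTC and DAD1 have means of 72.4% and 79.6%, with overlapping groups. RPN2, STT3A, STT3B, TUSC3 and MAGT1 overlap nearer the dashed line at 100%.

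Ratios within a library do not depend on its scaling, and 6 were compared (two-sided exact permutation test, 252 assignments, smallest possible p of 0.00794). The ratio of RPN1 to RPN2 counts was 1.20 ± 0.123 in filtered air and 0.999 ± 0.083 in the aerosol libraries (n = 5 each, exact permutation p = 0.0317, 0.0952 after adjustment over the 6). DPM3 to DPM1 went from 0.118 ± 0.0254 to 0.0632 ± 0.027 (n = 5 each, exact permutation p = 0.0159, adjusted 0.0952). DPM2 to DPM1 went from 0.292 ± 0.0257 to 0.174 ± 0.11 (n = 5 each, exact permutation p = 0.0476, adjusted 0.0952). STT3A to STT3B was 1.48 ± 0.203 and 1.55 ± 0.264 (n = 5 each, exact permutation p = 0.690). TUSC3 to MAGT1 was 1.30 ± 0.0997 and 1.19 ± 0.322 (n = 5 each, exact permutation p = 0.508). ALG10 to ALG10B was 0.984 ± 0.196 and 1.62 ± 0.827 (n = 5 each, exact permutation p = 0.206). None of the 6 ratios passed after adjustment. RPN1 and DPM3 were called lower in these same libraries, and DPM2 also had a log2 fold change below 0. The p-values of their ratios are therefore not separate evidence, and adjustment over the 6 does not cover this.

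Among the enzymes that extend the dolichol-linked glycan, none passed by edgeR, DESeq2 or limma-voom. The median log2 fold change was -0.22 over the 5 cytosolic steps and -0.21 over the 7 lumenal ones. By limma-voom with quality weights ALG13 passed as higher (adjusted p = 0.0424). Not passing does not show that a gene stayed unchanged, since some intervals were wide. The 95% interval ran from -1.01 to 0.21 for ALG1 and from -0.37 to 1.32 for ALG14. ALG13 joins ALG14 to add the second N-acetylglucosamine and was the only member higher at an unadjusted p under 0.05. It lay at 31.9, 31.2, 33.1, 32.6 and 46.1 CPM in filtered air libraries 1 to 5 and at 49.5, 40.4, 49.8, 41.5 and 51.9 CPM in aerosol libraries 1 to 5. Filtered air library 5 lay within the aerosol range and the other 4 lay below all aerosol libraries. The log2 fold change was 0.41 ± 0.14 (n = 5 each, edgeR adjusted p = 0.139), and without filtered air replicate 5 it was 0.53 (edgeR adjusted p = 0.0452).

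Its partner ALG14 was at 2.61 to 10.8 CPM after the aerosol, with libraries 2 and 5 above and the other 3 below the filtered air range of 3.25 to 4.43 CPM. ALG2, which adds mannose on the cytosolic side, lay at 19.7 to 25.3 CPM in filtered air and at 15.8 to 21.9 CPM after the aerosol. Its log2 fold change of -0.32 ± 0.14 did not pass (edgeR adjusted p = 0.248). ALG1 and ALG11, the other cytosolic mannosyltransferases, were at -0.40 and -0.22. ALG8, a glucosyltransferase, was at 23.1 to 32.9 CPM and 18.9 to 24.9 CPM (log2 fold change -0.29 ± 0.14, edgeR adjusted p = 0.313).

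ALG3, which adds the first lumenal mannose, was at 13.9 to 23.2 CPM and 12.3 to 21.0 CPM (-0.26 ± 0.19, edgeR adjusted p = 0.541), and its log2 fold change was -0.09 without aerosol libraries 4 and 5 together. ALG9, another mannosyltransferase, and ALG6, a glucosyltransferase, were at 0.07 and 0.14. ALG10 and ALG10B, near-identical copies of the last glucosyltransferase, can share reads, so their single values of 0.08 and -0.36 are uncertain. Their sum was 33.5 ± 5.96 CPM in filtered air and 30.6 ± 9.51 CPM in the aerosol libraries (n = 5 each), with overlapping ranges of 25.8 to 41.8 and 20.4 to 43.2.

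In the GPI route, the enzyme of the first step, which puts N-acetylglucosamine on phosphatidylinositol, had a median log2 fold change of -0.02 over 5 tested subunits. PIGA, its catalytic subunit, lay at 17.1 to 20.3 CPM in filtered air and 11.4 to 20.7 CPM after the aerosol (-0.17 ± 0.17, edgeR adjusted p = 0.682). It was -0.07 without aerosol replicate 1, its lowest library, and -0.27 without aerosol replicate 3, its highest. PIGQ lay at 13.3, 15.3, 19.9, 13.9 and 12.9 CPM in filtered air libraries 1 to 5. In aerosol libraries 1 to 5 it lay at 22.8, 19.0, 12.8, 7.11 and 3.74 CPM. Its aerosol values thus ran from above to far below the filtered air range, with libraries 4 and 5 lowest, and the log2 fold change of -0.20 ± 0.39 did not pass. Without libraries 4 and 5 together it was 0.27 (edgeR adjusted p = 0.616). PIGC, PIGH and PIGP were between -0.02 and 0.04. PIGY had 2 to 4 counts per library and shares its RefSeq interval with PYURF, which had 555 to 1422 counts, so its level could not be read from these counts.

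The 11 tested genes of GPI core assembly had 6 log2 fold changes below 0 and 5 above, with a median of -0.11. PIGG, which can modify the middle mannose with ethanolamine phosphate, was the fourth member whose groups did not overlap. It lay at 42.1, 42.6, 41.6, 41.3 and 40.8 CPM in filtered air libraries 1 to 5 and at 39.0, 33.9, 40.2, 29.5 and 32.2 CPM in aerosol libraries 1 to 5. Filtered air values were tightly grouped and aerosol library 3 lay just beneath them. Its log2 fold change was -0.25 ± 0.12 and did not pass (edgeR adjusted p = 0.285), and was -0.15 without aerosol libraries 4 and 5 together. PIGZ, which can add a further mannose, lay at 3.55 to 5.59 CPM and 1.67 to 3.71 CPM (-0.52 ± 0.30, edgeR adjusted p = 0.389). The other 9 genes of the group lay between -0.43 (PIGX, a partner of the first mannosyltransferase) and 0.32 (PIGF, needed for ethanolamine phosphate transfer).

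The GPI transamidase had 4 tested subunits and a median of -0.10. PIGK, which carries the protease active site, was at 92.7 ± 11.3 and 106 ± 20.1 CPM, and PIGT, a structural subunit, at 165 ± 12.3 and 163 ± 7.96 CPM (n = 5 each). The 95% interval of the log2 fold change of PIGT ran from -0.20 to 0.16. PIGS lay at 18.8 to 43.2 CPM in filtered air and at 14.9 to 34.4 CPM after the aerosol (-0.42 ± 0.26, edgeR adjusted p = 0.444), with -0.16 when aerosol libraries 4 and 5 were left out together. PIGU lay at 54.2 to 72.1 and 50 to 61.7 CPM (-0.18 ± 0.11, edgeR adjusted p = 0.446).

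Of the enzymes that trim the anchor after transfer, PGAP1, which removes an acyl chain from the inositol, lay at 16.4, 17.0, 17.8, 15.4 and 31.3 CPM in filtered air libraries 1 to 5. After the aerosol it lay at 27.9, 25.4, 19.9, 17.1 and 47.9 CPM. Library 5 was the highest of both groups, and the groups overlapped (log2 fold change 0.49 ± 0.28, edgeR adjusted p = 0.393). It was 0.20 without aerosol replicate 5, 0.72 without filtered air replicate 5 and 0.31 without aerosol libraries 4 and 5 together. PGAP3, a lipid remodelling factor of the Golgi, lay at 1.93 to 2.94 CPM and 0.481 to 2.88 CPM (-0.43 ± 0.45, edgeR adjusted p = 0.694), with -0.69 without aerosol replicate 1 and -0.19 without aerosol replicate 5. PGAP2, which acts in the same lipid remodelling, was at 0.20.

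Aerosol library 5 held the lowest of all 10 values for 17 of the 49 members (34.7%), against 22.3% of tested genes with at least 5 CPM. In the other aerosol libraries this number ran from 3 to 9 members. These were 12.2, 6.12, 18.4 and 10.2% in aerosol libraries 1 to 4, against 8.34, 8.48, 9 and 18.3% of genes with at least 5 CPM. The share of members was thus the smaller one in aerosol libraries 2 and 4. Aerosol library 5 also held the highest value for 6 members, ALG14 and PGAP1 among them. In aerosol library 5, 27 members (55.1%) lay below all filtered air libraries, and in aerosol libraries 1 to 4 between 18 and 21 did (36.7 to 42.9%). Among genes with at least 5 CPM these shares were 38.4% and 26.5 to 36.8%. The SD of log2 CPM was larger after the aerosol than in filtered air for 37 of 49 members (75.5%), and for 73.8% of genes with at least 5 CPM. All 52 genes together took 0.272 to 0.289% of counts in filtered air and 0.202 to 0.260% after the aerosol. These are shares of all gene counts without TMM scaling, and mitochondrially encoded genes took a larger share after the aerosol.

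**Figure D4:**
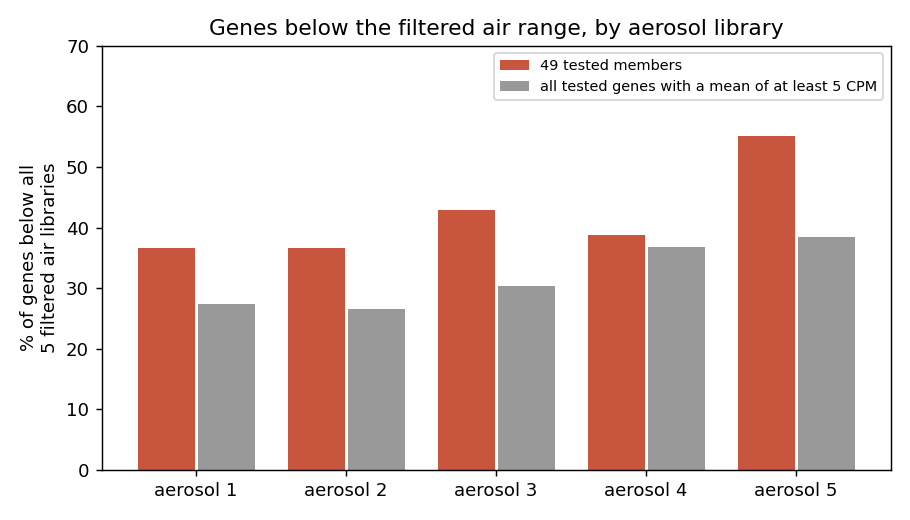
Percentage of genes whose level lies below all 5 filtered air libraries (y axis, from 0), for each aerosol library (x axis); red bars are the 49 tested members and grey bars all tested genes whose mean reached 5 CPM or more. The red bar exceeds the grey one in all 5 aerosol libraries and is highest in library 5, at 55.1%.

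Across all genes with a known span, the median log2 fold change was lowest for those of 5 to 20 kb, so the span of the members was set beside their values. Members spanning over 20 kb had a median log2 fold change of -0.10 (27 genes), against 0.01 for all such genes. Those of 5 to 20 kb were at -0.25 (17 genes), against -0.17. The 5 members under 5 kb, DPM2 and DPM3 among them, were at -0.22, against 0.06. With the trend on span removed, an alternative chosen after the data were seen, only the call of DPM3 remained, and RPN1 and DDOST were at -0.27 and -0.35 (edgeR adjusted p of 0.113 and 0.0580).

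Genes around the pathway, from 6 lists outside the names above, had 1 call lower and 1 higher among 86 tested (1.16% each), near the 1.39% and 1.62% of all genes, and a median of -0.25. At an unadjusted p under 0.05, 15 (17.4%) were lower, against 9.48% of all genes, and 4 (4.65%) were higher, against 8.78%. Among 7 genes of dolichol synthesis and the first glycan step none passed by edgeR, with 3 lower at an unadjusted p under 0.05 (median -0.28). DHDDS, a subunit of the enzyme that makes the dolichol chain, had the smallest p. It lay at 69.0, 66.5, 70.3, 69.5 and 61.1 CPM in filtered air libraries 1 to 5 and at 31.8, 56.3, 46.5, 25.7 and 57.8 CPM in aerosol libraries 1 to 5. All aerosol libraries were below filtered air, with library 4 lowest (log2 fold change -0.62 ± 0.20, edgeR adjusted p = 0.117). It passed by limma-voom with quality weights (adjusted p = 0.0291) and not by DESeq2.

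Of 11 genes that supply nucleotide sugars none passed by edgeR or DESeq2, and 2 were lower at an unadjusted p under 0.05 (median -0.23). MPI among them passed as lower by limma-voom with quality weights. In this list 10 genes were below 0 (90.9%), against 57.6% of tested genes with at least 5 CPM. GMPPA, a regulator of GDP-mannose synthesis, lay at 60.8 to 76.3 CPM in filtered air and at 53.7, 62.7, 47.1, 19.0 and 27.5 CPM in aerosol libraries 1 to 5. Libraries 4 and 5 were the lowest (log2 fold change -0.72 ± 0.27, edgeR adjusted p = 0.169), and without both it was -0.35 (edgeR adjusted p = 0.165). The 5 genes of a further list, OST4, TMEM258, KRTCAP2, GPAA1 and ARV1, had no call by edgeR or DESeq2 and a median of -0.18, with 1 lower at an unadjusted p under 0.05. That was OST4, a very small oligosaccharyltransferase subunit, at 85.0 to 177 and 62.5 to 130 CPM.

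Of 14 genes of glycan trimming and quality control CALR fell, the lectin chaperone calreticulin, from 1280 ± 83.5 to 990 ± 54.1 CPM without overlap (-0.36 ± 0.08, n = 5 each, edgeR adjusted p = 0.0262). Its call was lost without filtered air replicate 1, 2, 3 or 4 or aerosol replicate 3, with adjusted p between 0.0652 and 0.0821 and log2 fold changes from -0.37 to -0.35. With the span trend removed CALR was at -0.15 (edgeR adjusted p = 0.418). The list's median was -0.16. Of 20 Golgi enzymes and transporters of N-glycan processing none passed by edgeR, DESeq2 or limma-voom, with 3 lower and 2 higher at an unadjusted p under 0.05 and a median of -0.08. MGAT2, a branching enzyme, had the smallest p, at 69.5 ± 7.17 and 54.7 ± 5.01 CPM (n = 5 each, -0.34 ± 0.11, edgeR adjusted p = 0.124).

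Among 29 tested genes that encode proteins carrying a GPI anchor, 1 rose and none fell by edgeR, with 5 lower and 2 higher at an unadjusted p under 0.05. RGMB, a co-receptor of bone morphogenetic proteins, passed as lower by DESeq2 and limma-voom. The median was -0.28, with 20 of 29 below 0 (69%), against 50.4% of all genes tested and 57.6% of those with at least 5 CPM. Some of the 29 were near the floor. EFNA1, EFNA3, EFNA4, RTN4R and GPC2, all below 0, had a count of 0 in at least 1 aerosol library. So did ULBP3 and LYPD1, both above 0. The gene that rose was TFPI, a coagulation inhibitor of which 1 isoform is GPI-anchored. It lay at 156, 156, 143, 154 and 200 CPM in filtered air libraries 1 to 5 and at 190, 218, 223, 293 and 352 CPM in aerosol libraries 1 to 5. Filtered air library 5 overlapped with aerosol library 1, and aerosol libraries 4 and 5 were the highest. The log2 fold change was 0.66 ± 0.16 (n = 5 each, edgeR adjusted p = 0.0456).

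The call of TFPI was lost without any of filtered air replicates 1 to 4 or aerosol replicates 3 to 5, with adjusted p between 0.0723 and 0.129 and log2 fold changes from 0.51 to 0.70. Without aerosol libraries 4 and 5 together its log2 fold change was 0.37 (edgeR adjusted p = 0.124).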

How the data were processed

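Each mRNA library came with 1 table of whole-number counts per Ensembl gene, as deposited by the authors. Tools in the submitters' processing notes are DESeq 1.8.3, featureCounts 1.5.0-p3 and HISAT, with hg38 as the build and no roles stated. The labels' protocols name TRIzol for extraction and a SMARTER mRNA library kit. No source used here gives alignment settings, annotation release or strand use. The 10 miRNA libraries were not analysed here. Groups came from the sample titles.

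From the counts, edgeR 4.0.16 (R 4.3.3) was run with TMM scaling and the filterByExpr filter, and its robust quasi-likelihood test compared the groups with no other covariate, on 20166 genes (38569 left out as low). Adjusted p-values are Benjamini-Hochberg over all genes tested, with a threshold of 0.05, and standard errors were derived from each F statistic and fold change. Tested on simulated counts with the fitted dispersion of each gene and 200 genes changed 2-fold among 20163, the fit recovered 96 and made 5 false calls. The changed genes were drawn only from those above a minimum expected count. The recovery thus does not cover lower genes or smaller changes. DESeq2 1.42.0 and limma 3.58.1 served as alternatives. No 2 libraries agreed within sampling noise (lowest chi-square per degree of freedom 68.3).

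The members and gene lists were chosen with earlier results of these data known. Values in every library, or their range, are given for members past the threshold and for the 2 with the smallest p in each role. Of each other list the rule took up to 4 genes past the threshold, or the 1 with the smallest p. OSTC, ALG14, ALG12, RGMB, MPI and PINK1-AS, and the genes of GPI-anchored proteins with a count of 0, were singled out after their values were seen. Positions and promoter sequences are from RefSeq, GRCh38.p14.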

Additional observations from a re-analysis of the deposited data

Results flagged for a closer look

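Each member's 5 libraries per group were checked for a single value far from the other 4 by Dixon's test (critical value 0.71), in 98 groups, of which chance flags about 1 in 20. It picked out 2, and both were filtered air library 5. ALG13 was at 46.1 CPM there, against 31.2 to 33.1 CPM in the other filtered air libraries. PGAP1 was at 31.3 CPM there, against 15.4 to 17.8 CPM.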

How the results depend on the processing

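Under 22 alternatives, the number of members lower (3) was between 1 and 4 across tools, scalings and filters, and 0 to 3 when single libraries were left out. It was 1 with upper-quartile scaling (DDOST), 1 without aerosol libraries 4 and 5 together (RPN1) and 1 with the span trend removed (DPM3). The last pair of alternatives was added after the data were seen. The number of members higher (0) was 1 by limma-voom with quality weights (ALG13) and 0 to 1 with single libraries left out. The median log2 fold change of the members (-0.17) was -0.09 with upper-quartile scaling, -0.26 with library size scaling, -0.12 with a filter of 1 CPM in 5 libraries, -0.12 without aerosol libraries 4 and 5, and -0.06 with the span trend removed. With single libraries left out it ran from -0.19 to -0.14.

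In the other lists, the number lower (1) was 0 with upper-quartile scaling and with the span trend removed, 2 with library size scaling, DESeq2 and limma-voom, and 4 with quality weights. The number higher (1) was 0 by limma-voom, without aerosol libraries 4 and 5, and with the span trend removed. With single libraries left out these ran from 0 to 2 and from 0 to 1. The direction of DPM3, RPN1 and DDOST stayed negative in all 22. PIGQ turned to 0.01 with quality weights, 0.03 without aerosol replicate 5 (-0.50 to 0.03 over single libraries left out) and 0.27 without aerosol libraries 4 and 5. The cause was not tested. Calls over all genes were 608, 653 with upper-quartile scaling, 562 with library size scaling, 1524 by DESeq2, 1102 by limma-voom with quality weights and 353 with the span trend removed, and 183 to 757 with single libraries left out.

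Both groups share replicate numbers 1 to 5, but same-numbered libraries deviated together by a correlation of only 0.01 to 0.05, so the numbers were not taken to pair them, and 1 of the 5 filtered air libraries correlated best with its own number. With the replicate block 1 member was lower (DDOST), 0 higher, 0 other-list genes lower and 450 genes called in all.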

Other observations

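The files list further GPI remodelling enzymes under older symbols, so the names above did not take them. TMEM8A, matched by identifier to PGAP6, was at 34.5 ± 5.75 CPM in filtered air and 23.9 ± 7.27 CPM after the aerosol (n = 5 each). Its log2 fold change of -0.53 ± 0.21 did not pass (edgeR adjusted p = 0.204). TMEM246, matched to PGAP4, was at 15.6 ± 7.97 and 10.1 ± 5.67 CPM (n = 5 each, edgeR adjusted p = 0.602).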
